A study of Macaca mulatta with 10 samples.

Results

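The T cell receptor (TCR) complex and its first signaling steps were followed through 9 genes in flow-sorted Tr1 cells of rhesus macaques. The genes were taken by symbol from the deposited table of 26484 genes, and all 9 were found and all 9 had enough counts to be tested, among 14168 genes that did. They were CD3D, CD3E, CD3G and CD247, which encode the signaling chains of the receptor, LCK, FYN and ZAP70, which encode its proximal kinases, and LAT and SH2D2A, which encode adaptors. Tr1 cells are regulatory CD4+ T cells, sorted here from thawed blood cells by the surface markers CD4, CD49b and LAG-3. The cells came from diabetic monkeys that all carried an islet allograft matched for one MHC class II DRB allele and had all received short-term immunosuppression (an antagonistic anti-CD40 antibody, rapamycin, soluble TNF receptor and an antibody to the IL-6 receptor). The 5 monkeys of Cohort B received no apoptotic donor leukocytes (ADLs), and the 5 of Cohort C received ADL infusions, with 1 library per monkey. Per the labels, blood was taken at sacrifice, at the planned end of 365 days in Cohort C and at rejection in Cohort B. The paper and the labels differ on the day of sampling for some monkeys, so ADL infusion cannot be told apart from graft state and time here. Ages were not given in the labels.

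When a TCR binds its peptide and MHC, LCK phosphorylates the tyrosine motifs of the CD3 chains and of the zeta chain, which CD247 encodes. ZAP70 docks on these motifs, is activated by LCK and phosphorylates LAT, on which adaptors and enzymes assemble that lead to calcium, Ras and NF-κB signals. FYN is the second Src-family kinase of T cells, and SH2D2A encodes TSAd, an SH2 domain adaptor that binds LCK and is known to be induced when T cells are activated.

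Library depth set how far each gene could be read. The total counts ranged from 6076 to 1392157 in Cohort B and from 66485 to 5895609 in Cohort C, and 4 libraries held at least 1000000 counts (13EP12 and 13EP8 of Cohort B, 13EP5 and 15CP1 of Cohort C). The MTRNR2L1 gene held 82.6% of the counts of Cohort C monkey 14HP33 and 2.30% to 31.7% of those of the other libraries. Of the sort markers, CD4 had counts in 6 libraries, ITGA2 (CD49b) in 4 and LAG3 in 3, so the label could not be checked by all 3 genes in most libraries. In CPM, which are counts scaled to a common library size with edgeR's TMM factors, the 7 measured T cell markers summed to 0 to 2511 in Cohort B and to 81.2 to 2879 in Cohort C, with none of the 7 detected in Cohort B monkey 14HP31. In the 4 libraries of at least 1000000 counts, CD4 was at 71.9 to 293 CPM, ITGA2 at 1.25 to 21.7 and LAG3 at 0 to 8.68. The 8 monocyte markers summed to 0 to 1277 CPM in Cohort B and 0 to 1389 in Cohort C, the 6 B cell markers to 0 to 91.0 and 0 to 94.8, and the 7 CD8 and NK cell markers to 0 to 224 and 0 to 94.4. The 5 platelet markers summed to 0 to 22.6 CPM in Cohort B and to 0 to 276 in Cohort C, and the 4 erythroid markers to 0 to 416 and 0 to 1325. The part of these cells in the values below was not tested. In such bulk samples, fewer T cells and less RNA per T cell cannot be told apart.

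The 9 genes were read as a group in some libraries and almost not at all in others. All 9 had counts in the 4 libraries of at least 1000000 counts, 2 of each cohort, so none of the 36 values there was 0. In the 6 other libraries 38 of the 54 values were 0. Cohort B monkey 15CP6 had counts on 6 of the genes, 14HP26 on 2 and 14HP31 on 1. Cohort C monkey 14HP24 had counts on 5, 14HP33 on 2 and 15CP4 on none. In the 5 libraries with counts on at least 6 of the genes, their summed counts were a similar part of the library. They made up 0.116% of all counts in monkey 13EP12, 0.118% in 13EP8, 0.120% in 15CP6, 0.115% in 13EP5 and 0.1301% in 15CP1. In the remaining libraries the share was lower, between 0% in 15CP4 and 0.0329% in 14HP31, where it rested on 2 counts. The libraries were grouped by detection of the same genes, so a lower share in the rest was partly set by the grouping. In 14HP33 the share was 0.00238%, where MTRNR2L1 held 82.6% of the counts, and the 9 genes summed to 328 TMM-normalized CPM. The libraries with the low share were 2 of the 5 in Cohort B and 3 of the 5 in Cohort C.

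**Figure D1:**
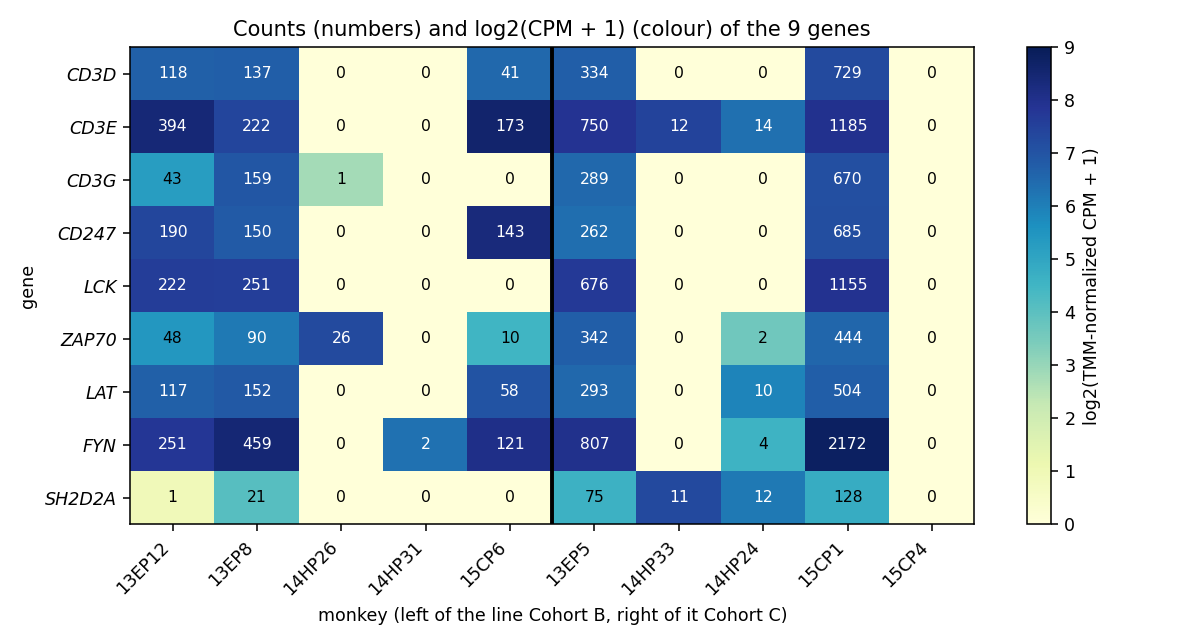
Counts of the 9 genes (rows) in the 10 libraries (columns, by monkey, with Cohort B left and Cohort C right of the black line); the number is the count and the colour is log2 of TMM-normalized CPM plus 1. The 4 libraries of at least 1000000 counts have counts on every gene, 15CP4 has none, and SH2D2A is the palest row in 13EP12, where it had 1 count.

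The CD3 chains did not separate the cohorts. CD3E, the epsilon chain that pairs with both CD3 delta and CD3 gamma, was the receptor chain seen in the most libraries, with counts in 7. Its counts were 394, 222, 0, 0 and 173 in Cohort B monkeys 13EP12, 13EP8, 14HP26, 14HP31 and 15CP6. The monkeys of Cohort C, 13EP5, 14HP33, 14HP24, 15CP1 and 15CP4, had 750, 12, 14, 1185 and 0. Libraries at 0 and libraries with over 100 counts occurred in both cohorts, so the groups overlapped.

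On the CPM scale CD3E was at 342, 170 and 383 in 13EP12, 13EP8 and 15CP6 and at 234, 171, 80.8 and 246 in 13EP5, 14HP33, 14HP24 and 15CP1. Its mean log2(CPM + 1) was 4.88 ± 4.48 in Cohort B and 5.92 ± 3.37 in Cohort C (SD, n = 5 each). The 171 CPM of 14HP33 rested on 12 counts and a TMM factor of 0.0725, and was 12.4 CPM by library size alone. The difference of the cohort means was 1.04, and 0.33 by library size alone. The edgeR fold change had the other sign, with a log2 value of -0.30 for Cohort C over Cohort B (standard error (SE) 1.94, adjusted p = 0.9998). Each edgeR SE was computed back from the fold change and the F statistic of the test, so it restates the unadjusted p-value.

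CD3D, the delta chain, had counts of 118, 137, 0, 0 and 41 in Cohort B and of 334, 0, 0, 729 and 0 in Cohort C, each in the order of monkeys above. Where it was detected it lay within a narrow range, at 102, 104.8 and 90.7 CPM in 13EP12, 13EP8 and 15CP6 and at 104 and 151 CPM in 13EP5 and 15CP1. CD3G, the gamma chain, had counts of 43, 159, 1, 0 and 0 in Cohort B and of 289, 0, 0, 670 and 0 in Cohort C. In 13EP12 it was lower than in the 3 other deep libraries, at 37.3 CPM beside 122, 90.1 and 139.

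CD247, the zeta chain that carries most of the receptor's signaling motifs, had counts of 190, 150, 0, 0 and 143 in Cohort B and of 262, 0, 0, 685 and 0 in Cohort C. Among the libraries that had it, the highest level was 316 CPM in 15CP6 and the lowest 81.7 CPM in 13EP5. The log2 fold change of CD247 for Cohort C was -1.40 (SE 2.02, adjusted p = 0.987, edgeR). The corresponding values were -0.23 (2.02) for CD3D and 0.44 (2.04) for CD3G, with adjusted p = 0.9998 for both. For CD3G the mean log2(CPM + 1) pointed the other way, at 3.00 ± 3.11 in Cohort B and 2.73 ± 3.74 in Cohort C. No receptor chain differed beyond its error.

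LCK, the kinase that starts TCR signaling, was all or none across the libraries. Its counts were 222, 251, 0, 0 and 0 in Cohort B and 676, 0, 0, 1155 and 0 in Cohort C, so each cohort had LCK in its 2 deepest libraries and nowhere else. In those 4 libraries its level was 193 and 192 CPM in Cohort B and 211 and 240 CPM in Cohort C. The highest was 1.25 times the lowest, a ratio this small in 0.836% of the 8013 genes with a mean of at least 10 CPM in the same libraries, over which the median ratio was 4.67. LAT had the next most even level of the 9 genes, with a ratio of 1.27, and CD3D followed with 1.48. The log2 fold change of LCK was 0.21 (SE 1.99, adjusted p = 0.9998, edgeR).

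**Figure D2:**
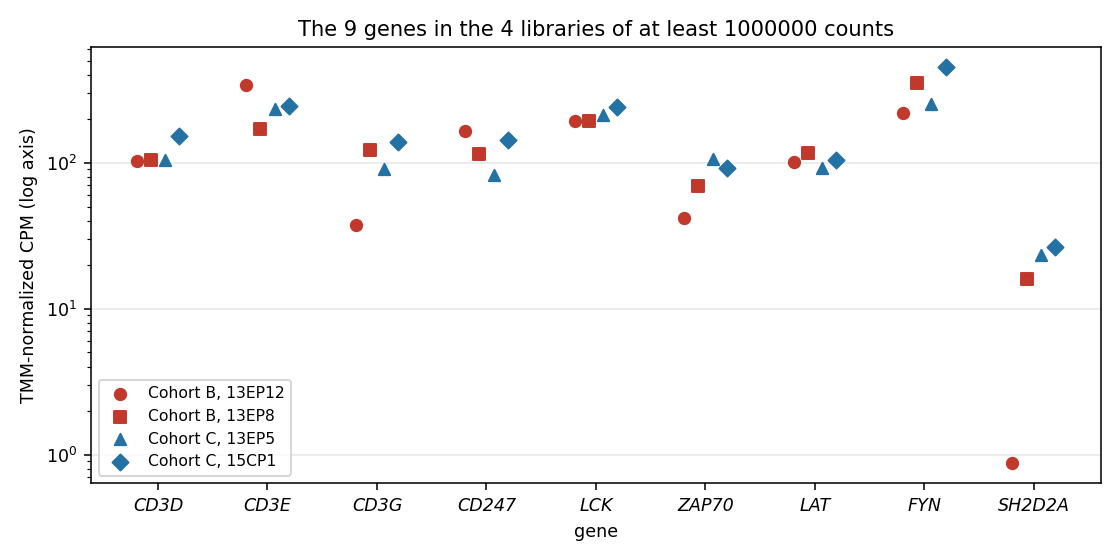
TMM-normalized CPM (log axis) of the 9 genes in the 4 libraries of at least 1000000 counts, with red for Cohort B, blue for Cohort C and 1 marker shape per monkey. LCK lies between 192 and 240 CPM in all 4, whereas SH2D2A runs from 0.868 CPM in 13EP12 to 26.6 in 15CP1.

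LCK was missing from 1 library in which its neighbours in the pathway were well covered. Cohort B monkey 15CP6 had 173 counts on CD3E, 143 on CD247 and 121 on FYN, and 0 on LCK, CD3G and SH2D2A. At the median level of the 4 deepest libraries, 202 CPM, LCK would have had 91.3 counts there and CD3G 47.9. A count of 0 in 15CP6 allows at most 6.63 CPM at the limit of 3 counts, which covers counting error only. In 14HP31, the shallowest library, the same limit was 117 CPM, so most of the 9 genes were not detectable there at the levels of the deep libraries. Over the 6 shallower libraries, 33 of the 38 zeros stood where more than 3 counts would have been reached at the deep libraries' median level, and 28 of the 38 when only library size was used for scaling. Counts above that level were rarer, with 6 of the 54 values above it and over 3 counts. Among them were CD247 and CD3E in 15CP6 and SH2D2A in 14HP33 and 14HP24. When only library size was used, SH2D2A in 14HP33 was below it, with 11 counts where 19.1 would have been reached.

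**Figure D3:**
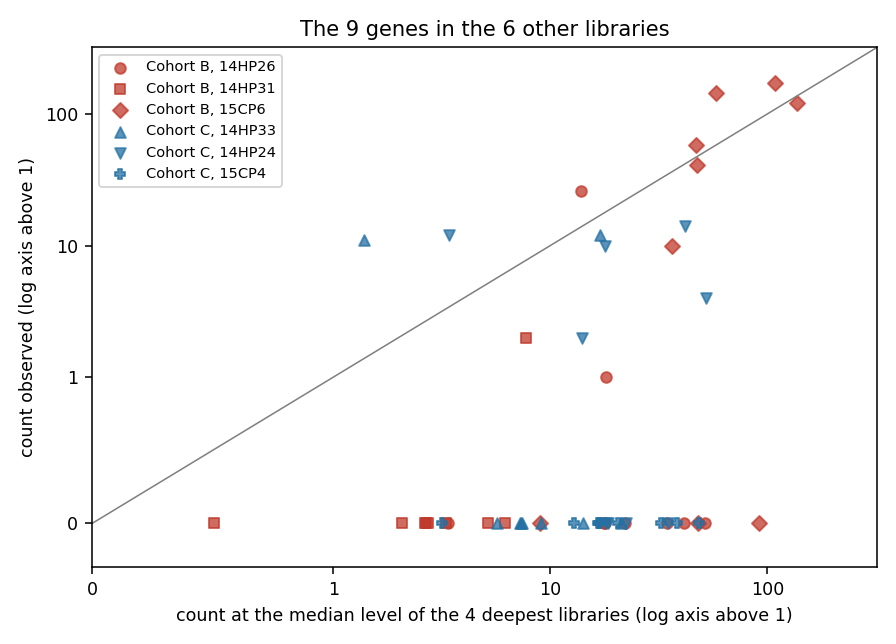
Observed count (vertical, log axis above 1) against the count each gene would have at the median level of the 4 deepest libraries (horizontal, log axis above 1), 1 point for each of the 9 genes in each of the 6 other libraries; the grey line marks equality, red is Cohort B and blue Cohort C. Of the 54 points 38 lie at 0, up to an expected 91.3 counts for LCK in 15CP6.

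FYN was the most abundant of the 9 genes by counts and was seen in 7 libraries. It had counts of 251, 459, 0, 2 and 121 in Cohort B and of 807, 0, 4, 2172 and 0 in Cohort C. Its level ran from 218 to 451 CPM over the 4 deep libraries, with the lowest and the highest in different cohorts. FYN made up 53.1% of the summed FYN and LCK counts in 13EP12 (95% Wilson interval 48.6% to 57.5%) and 54.4% in 13EP5 (51.9% to 56.9%). In 13EP8 it made up 64.6% (61.1% to 68.1%) and in 15CP1 65.3% (63.6% to 66.9%). The intervals of 13EP12 and 13EP5 overlapped each other and lay below those of 13EP8 and 15CP1, which also overlapped each other, with 1 library of either cohort at each level. In 15CP6 all 121 counts were on FYN (96.9% to 100%). These shares are not corrected for transcript length, and the intervals cover counting error only. In the deposited FPKM, scaled per transcript length, FYN and LCK were at 39.7 and 121 in 13EP12 and at 601 and 807 in 13EP5. They were at 116 and 130 in 13EP8 and at 132 and 125 in 15CP1. The likeness of 13EP12 and 13EP5 was thus seen on the count scale alone. The log2 fold change of FYN was -0.33 (SE 1.94, adjusted p = 0.9998, edgeR).

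ZAP70 had counts in 7 libraries, at 48, 90, 26, 0 and 10 in Cohort B and at 342, 0, 2, 444 and 0 in Cohort C. In the 4 deep libraries its level was 41.7 and 68.8 CPM in Cohort B and 107 and 92.1 in Cohort C, and these did not overlap. The same held, with Cohort C higher, for 32.9% of the 13274 genes tested in these libraries. In 14HP26 it reached 153 CPM on 26 counts, although the only other gene of the 9 with a count there was CD3G, with 1. Over all 10 libraries the log2 fold change of ZAP70 was -0.44 (SE 2.04, adjusted p = 0.9998, edgeR), and over the 4 deep libraries it was 0.70 (0.770, adjusted p = 0.826). SYK, the paralog of ZAP70 used by B cells and myeloid cells, was counted beside it. ZAP70 took 36.6% of the summed counts of the pair in 13EP12 (28.9% to 45.2%), 41.1% in 13EP8 (34.8% to 47.7%), 65.3% in 13EP5 (61.1% to 69.2%) and 50.7% in 15CP1 (47.4% to 54.0%). The share was higher in both deep Cohort C libraries than in both of Cohort B, with overlapping intervals for 13EP8 and 15CP1. The shallower libraries ran the other way, with all 26 counts of the pair in 14HP26 and all 10 in 15CP6 on ZAP70 in Cohort B, and 0 of 16 in 14HP33 and 2 of 9 (22.2%, 6.32% to 54.7%) in 14HP24 in Cohort C. The share was given with no test, and 2 libraries a cohort cannot reach p under 0.05 in an exact permutation test.

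LAT, the membrane scaffold that ZAP70 phosphorylates, was at 102, 116 and 128 CPM in 13EP12, 13EP8 and 15CP6, on 117, 152 and 58 counts. In Cohort C it was at 91.4, 57.7 and 104.6 CPM in 13EP5, 14HP24 and 15CP1, on 293, 10 and 504 counts, and it was at 0 in the other libraries. The groups overlapped, and the log2 fold change was -0.46 (SE 2.02, adjusted p = 0.9998, edgeR). In the RefSeq annotation of the rhesus assembly T2T-MMU8v2.0, LAT overlaps SPNS1, and reads over a shared stretch may have been assigned to either gene. LAT2, the related adaptor of B cells and myeloid cells, was lower than LAT in every library that had both, and LAT took 66.7% (62.2% to 71.0%) of their summed counts in 13EP5 and 93.8% (89.0% to 96.6%) in 13EP8.

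SH2D2A was the least abundant of the 9 genes and had counts in 2 Cohort C libraries in which LCK had none. It had 1, 21, 0, 0 and 0 counts in Cohort B and 75, 11, 12, 128 and 0 in Cohort C, and thus had counts in 2 of 5 and 4 of 5 libraries. In the 4 deep libraries it was at 0.868 and 16.1 CPM in Cohort B and at 23.4 and 26.6 CPM in Cohort C. The 13EP12 value rested on 1 count, and the ratio of highest to lowest over the 4 libraries was 30.6, beside 1.25 to 3.73 for the other 8 genes. In 14HP33 and 14HP24 SH2D2A stood at 157 and 69.3 CPM. The value of 14HP33 depended on its normalization factor of 0.0725 and was 11.4 CPM by library size alone, below the 15.1 CPM of Cohort B monkey 13EP8 on that scale. The paper reported this gene, which it calls SH2D2, as significantly higher in Tr1 cells of Cohort C. It also reported that Tr1 cells of Cohort C suppressed proliferation less after treatment with small interfering RNA against it. The study picked SH2D2A for its difference between these same libraries, so its direction here is not independent evidence.

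Set beside its partner LCK within a library, SH2D2A took 0.448% of the summed counts of both genes in 13EP12 (0.0792% to 2.50%) and 7.72% in 13EP8 (5.10% to 11.5%). In the 2 deep Cohort C libraries the share was almost the same, 9.99% in 13EP5 (8.04% to 12.3%) and 9.98% in 15CP1 (8.45% to 11.7%). The interval of 13EP8 overlapped both, and that of 13EP12 overlapped none of the 3. In 14HP33 and 14HP24 the counts lay on SH2D2A alone, with 11 of 11 (74.1% to 100%) and 12 of 12 (75.8% to 100%), whereas LCK at the deep libraries' median level would have had 14.2 and 35.0 counts. The difference of the cohort means of the log2 ratio, with 0.5 added to each count, was 6.09 over the libraries with at least 10 counts on the pair. These were 2 of Cohort B and 4 of Cohort C. Among them 14HP33 and 14HP24 met that limit through SH2D2A alone, and the added 0.5 stood in for LCK, so 6.09 depends on it. Over the 4 deep libraries the difference was 2.21. These ratios are given as a description, with no test.

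**Figure D4:**
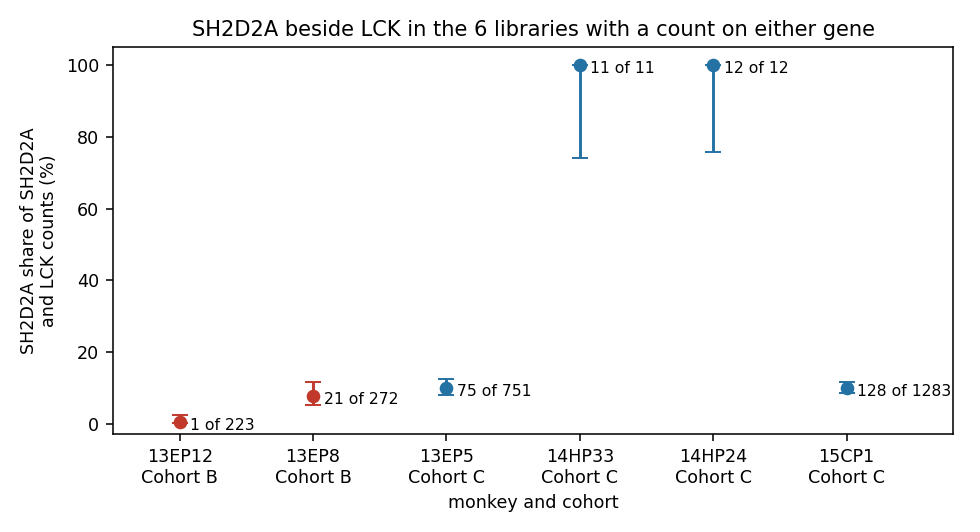
Share of SH2D2A in the summed SH2D2A and LCK counts (percent) in the 6 libraries with a count on either gene, with 95% Wilson intervals as bars, red for Cohort B and blue for Cohort C, and the counts beside each point. The deep Cohort C libraries lie at 9.99% and 9.98%, 13EP8 at 7.72% and 13EP12 at 0.448%, and in 14HP33 and 14HP24 all counts were on SH2D2A.

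None of the 9 genes passed the rule named in the study's methods, a change of 1.5-fold or more at an unadjusted p under 0.01, in the edgeR quasi-likelihood test over the 10 libraries. Of all 14168 genes tested, 911 (6.43%) passed it. None of the 9 had an unadjusted p under 0.05 either, which 20.6% of all genes had, and no gene of the table passed an adjusted p under 0.05. SH2D2A had the smallest p and a log2 difference of 3.69 (SE 2.33, unadjusted p = 0.113, adjusted p = 0.426, edgeR). Without Cohort B monkey 13EP8 its difference was 6.74, and without Cohort C monkey 14HP33 it was 2.83. For the other 8 genes the log2 fold change lay between -1.40 and 0.44 with standard errors from 1.94 to 2.04, so 1 SE alone came to about 4-fold. The median over the 9 genes was -0.30, with 3 genes higher and 6 lower in Cohort C, beside a median of 0.16 over all genes tested.

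The exact permutation test of log2(CPM + 1), two-sided over all 252 assignments, gave SH2D2A a mean of 4.57 ± 2.78 in Cohort C and 0.999 ± 1.77 in Cohort B (SD, n = 5 each, p = 0.0635, adjusted p = 1 over all genes). For the other 8 genes p lay between 0.365 and 0.929, and 0.24% of all genes had a p under 0.05. Among the 8 libraries of at least 100000 counts, 4 a cohort, every Cohort C value of SH2D2A was above every Cohort B value (exact permutation p = 0.0286, the smallest that 70 assignments allow, adjusted p = 1). The same held for 0.205% of all genes and for none of the 8 other members, and 0.332% of all genes had a p under 0.05. By library size alone none of the 9 genes was free of overlap in that direction (0.0423% of all genes), since 14HP33 then lay below 13EP8 for SH2D2A. The limit of 100000 counts left out 15CP4 of Cohort C and 14HP31 of Cohort B, both with 0 SH2D2A counts. With 15CP4 kept, the cohorts overlapped. The study picked SH2D2A from these same libraries, so its separation is not independent evidence.

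With the 4 libraries of at least 1000000 counts, a choice made after the counts had been seen, the standard errors fell to between 0.498 and 0.770 for the 8 genes other than SH2D2A. Their log2 fold changes then lay between -0.49 for CD247 and 0.70 for ZAP70, and that of LCK was 0.074 (SE 0.498, adjusted p = 0.984, edgeR). SH2D2A had 1.38 (1.84, adjusted p = 0.875). None of the 9 passed the rule of the study's methods, which 0.881% of 13274 genes did, or an adjusted p under 0.05, which 0.00753% did. The CPM of 3 of the 9 genes did not overlap between the cohorts and were higher in Cohort C (LCK, ZAP70 and SH2D2A), as for 32.9% of all genes, and none was lower, as for 7.35%. The members' share was close to that of all genes.

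**Figure D5:**
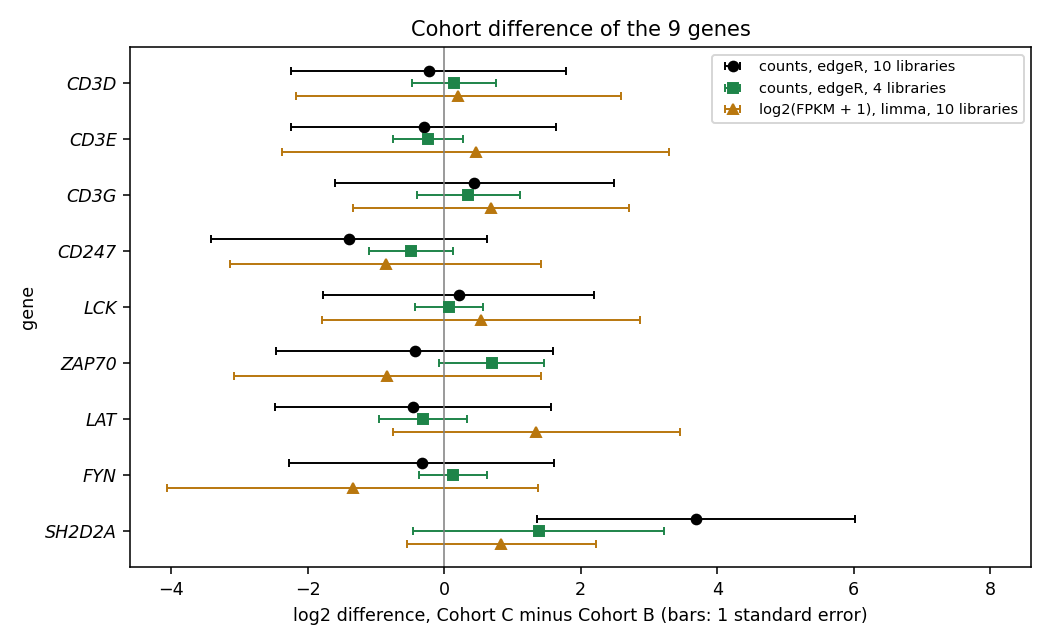
Log2 difference of Cohort C minus Cohort B for each gene (points) with 1 standard error (bars), from edgeR on the counts of 10 libraries (black circles), edgeR on the 4 libraries of at least 1000000 counts (green squares) and limma on log2(FPKM + 1) of 10 libraries (orange triangles). SH2D2A lies farthest to the right in black, at 3.69, and moves to 1.38 in green. The other 8 genes stay within 1 standard error of 0 in black. The edgeR standard errors were computed back from the fold change and the F statistic.

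The deposited FPKM values, which are scaled per transcript length, allowed the genes to be ordered within a library. LCK ranked 1st in 13EP8 and 2nd in 13EP12, 13EP5 and 15CP1, at 130, 121, 807 and 125 FPKM. CD3E led in 13EP12 and 13EP5 at 134 and 957 FPKM, was 3rd in 15CP1 at 125, and was 6th in 13EP8 at 47.8. The FPKM of CD3D was 3rd or 4th in all 4, while ZAP70 was 5th in 13EP5 at 300 FPKM and last or next to last in the other 3, at 6.54 to 15.7. SH2D2A was last or next to last in the 3 libraries that gave it an FPKM, at 10.9 in 13EP8, 25.6 in 13EP5 and 7.17 in 15CP1. In these 4 libraries LCK and CD3D thus stood high and SH2D2A low, and the order of the rest differed. FPKM in 13EP5 were higher than in any other library for all 9 genes, so the genes were ordered within libraries only.

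Counts and FPKM did not mark the same libraries as positive for every gene. Of the 90 values, 45 were above 0 on both scales, 38 were 0 on both, and 7 had counts with an FPKM listed at 0. Of these 7, 3 belonged to SH2D2A, whose 1 count in 13EP12, 11 in 14HP33 and 12 in 14HP24 were all listed at 0 FPKM. The largest was LAT in 15CP6, with 58 counts and an FPKM listed at 0. The detection of SH2D2A without LCK in 14HP33 and 14HP24 was therefore seen on the count scale alone. In limma on log2(FPKM + 1), none of the 9 genes passed an adjusted p under 0.05 with more than a 1.4-fold change, and neither did any of 10307 genes (0%, with 0.146% at an unadjusted p under 0.05). On that scale the difference for SH2D2A was 0.84 (SE 1.38, adjusted p = 0.9996) and that for LCK was 0.54 (2.33, adjusted p = 0.9996), both beside a median of 0.74 over all genes. The differences of LAT (1.35, SE 2.10), CD3E (0.46, 2.84) and CD3D (0.21, 2.38) were positive in FPKM and negative in counts, and that of ZAP70 (-0.83, 2.25) was negative in both.

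No difference between the cohorts beyond its error was found in the genes around the receptor. The 74 other pathway genes that could be tested were TRAT1, coreceptors, adaptors and kinases at LAT, regulators of LCK, ZAP70 and LAT, and genes downstream of LAT. Of these, 46 had a positive and 28 a negative log2 fold change in Cohort C, with a median of 0.18. None passed an adjusted p under 0.05, which no gene of the table did, or the rule of the study's methods, which 6.43% of all genes did. Beside 20.6% of all genes, 1 of the 74 had an unadjusted p under 0.05. That gene was THEMIS, which encodes a regulator of TCR signaling in thymocytes, with 16 counts, all in 15CP1 (log2 fold change 3.41, standard error 1.70, adjusted p = 0.227, edgeR). Of 7 listed T cell receptor genes (TRAC, TRBC1, TRBC2, TRDC, TRGC1, TRGC2 and TRAT1), only TRAT1 was among the deposited genes. The constant chains of the receptor were therefore not measured. TRAT1 had counts in 5 libraries and a log2 fold change of -0.78 (2.05).

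Of the 8 coreceptor and costimulation genes, 4 were higher and 4 lower in Cohort C, with none at an unadjusted p under 0.05, beside 20.6% of all genes. CD28, the main costimulatory receptor, had 3115 counts in all and a log2 fold change of -0.67 (SE 1.95), and CD4 and CD6 had 0.35 (1.98) and -0.69 (1.98). Of the 17 adaptors and Tec kinases at LAT, 12 were higher and 5 lower. FYB, an adaptor of integrin activation, PIK3R1, a regulatory subunit of PI3 kinase, and PLCG1, the phospholipase recruited to LAT, had the most counts, with log2 fold changes of 0.49 (1.86), 0.30 (1.92) and 0.27 (1.89).

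Of the 23 regulators, 13 were higher and 10 lower. PTPRC, the CD45 phosphatase that activates LCK, had 0.28 (SE 1.81), PAG1, which brings the inhibitory kinase CSK to the membrane, had -0.38 (1.92), and DGKA, which removes diacylglycerol, had 0.19 (1.92). Of the 25 genes downstream of LAT, 17 were higher and 8 lower, and ITPR2, an inositol trisphosphate receptor, SOS1, a Ras exchange factor, and NFATC2, a calcium-regulated transcription factor, had 0.57 (1.90), 0.088 (1.89) and -0.29 (1.93). None of these 48 genes had an unadjusted p under 0.05, beside 20.6% of all genes. The 10 genes that every cell uses had a median of 0.46, with 8 higher and 2 lower, and ACTB, EEF1A1 and YWHAZ had 0.43 (1.70), 0.24 (1.68) and 0.87 (1.83).

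Of 9 relatives of the members outside the pathway, 3 had an unadjusted p under 0.05, each with few counts, beside 20.6% of all genes. BLK, a Src-family kinase of B cells, had 57 counts, 37 in 13EP5 and 20 in 15CP1 (log2 fold change 5.18, standard error 2.12, adjusted p = 0.141, edgeR). SRC had 126 counts, of which 121 were in 13EP5 (6.31, 2.51, adjusted p = 0.141). YES1 had 46 counts, 18 in 13EP8, 26 in 14HP26 and 2 in 15CP1 (-6.96, 2.82, adjusted p = 0.141). LYN, SYK and FGR, the paralogs with the most counts, had 0.50 (1.95), 1.20 (2.06) and -0.10 (2.04). LYN, a kinase of B cells and myeloid cells, was counted more often than LCK in each of the 4 deep libraries. There LCK took 37.5% to 46.5% of the summed counts of both, not corrected for transcript length. In FPKM the order was reversed in all 4. LCK and LYN were at 121 and 35.4 FPKM in 13EP12 and at 130 and 58.6 in 13EP8. They were at 807 and 689 FPKM in 13EP5 and at 125 and 81.4 in 15CP1. Monocyte markers summed to 1277, 1199, 185 and 1389 CPM in 13EP12, 13EP8, 13EP5 and 15CP1, and their part in the LYN counts was not tested.

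Among 7 tested SH2 domain relatives of SH2D2A, 3 were higher and 4 lower in Cohort C. SH2D5, with 22 counts that were all in 13EP12, passed the rule of the study's methods (log2 fold change -5.44, standard error 2.02, unadjusted p = 0.00716, adjusted p = 0.141, edgeR). That rule was passed by 6.43% of all genes tested. SH2B3, SH2D3C and SH2D1A, the last encoding the adaptor SAP of T and NK cells, had -0.92 (2.01), 0.76 (2.06) and -1.30 (2.07).

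The genes whose profile over the 10 libraries was most like that of LCK were C21orf91, C11orf58, HIST2H2BF, ADAM10 and LARS, with Pearson r from 0.9998 to 0.99995 on log2(CPM + 1) among 8630 genes of at least 100 counts. All 5 were at 0 in the same 6 libraries as LCK, and in all 1746 of the 8630 genes (20.2%) had counts in exactly the libraries in which LCK had them. Such correlations therefore rest on which libraries had counts. The genes most like SH2D2A were NCBP2 (r = 0.983), ZNF441 (0.978), TGIF1 (0.958), CBFA2T2 (0.947) and SCAF1 (0.946). These 5 had counts in 14HP33 and 14HP24, as SH2D2A did, and between 0 and 8 counts in 13EP12. Among the members, the r with LCK was highest for CD3G, at 0.955, and lowest for SH2D2A, at 0.25, and the r with SH2D2A was highest for CD3E, at 0.561. The points share library depth, and no p is given.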

How the data were processed

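Paired-end RNA sequencing of sorted Tr1 cells was analysed in 10 libraries, 1 per monkey, grouped into cohorts by the sample labels. Rhesus reads were mapped by the authors with HISAT2 2.0.2 to the human build hg38, and raw read counts per gene were deposited. The counting options for strand and for reads with several matches are not given in the sources used here. FPKM from Cuffdiff 2.2.1 were deposited by the authors as a second table.

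Counts were compared by edgeR 4.0.16 (R 4.3.3, quasi-likelihood test, TMM) over genes with at least 10 summed counts, with Benjamini-Hochberg adjustment over all of them. The edgeR standard errors are the size of the log2 fold change divided by the square root of the F statistic, not separate estimates. FPKM were compared with limma 3.58.1 on log2(FPKM + 1) over genes with a mean of at least 1 FPKM. Exact permutation tests, two-sided, were run on log2(CPM + 1) for every gene of the count test. Wilson intervals (scipy 1.17.1) cover counting error only. The edgeR test was tested on simulated data. The alternatives were other normalizations, filters and tools (DESeq2 1.42.0, limma-voom), a replicate block, an index suffix covariate, deeper libraries and leaving out each library.

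The members, gene lists and tests were chosen with earlier results of these data known. All 9 members are named, and of each pathway list the 3 genes with the most counts and up to 4 with an unadjusted p under 0.05. The p-values measure the spread between single libraries of different monkeys. Sequences were not analysed here.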

Additional observations from a re-analysis of the deposited data

Results flagged for a closer look

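In each cohort, sets of 5 values were examined for each of the 9 genes (log2(CPM + 1)) and for the log10 of their summed counts. Of these 20 sets, 3 held a library whose gap to its nearest neighbour was over 0.71 of the range of the set. The 3 sets cannot be weighed against the nominal chance figure of about 1 in 20, because many values were 0 in the shallower libraries. CD3E in Cohort C was at 0 in monkey 15CP4, far below the 4 other monkeys. FYN in Cohort B was at 0 in monkey 14HP26, while the shallower library of 14HP31 had 2 FYN counts. SH2D2A in Cohort B was at 4.09 in monkey 13EP8, above 4 monkeys of which 3 had no count. Without 13EP8 the log2 fold change of SH2D2A was 6.74 (unadjusted p = 0.0463, edgeR), and without Cohort C monkey 14HP33 it was 2.83 (unadjusted p = 0.217). The causes were not tested.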

How the results depend on the processing

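In each of the 23 alternatives on the counts, 0 of the 9 genes reached a 1.5-fold change at an unadjusted p under 0.01, and in each of the 13 on FPKM 0 passed. The filterByExpr rule left CD3G, LCK and SH2D2A out of the test. SH2D2A had an unadjusted p of 0.0247 in limma-voom, 0.101 in DESeq2 and 0.0639 in the edgeR exact test. Over all genes the count of 911 went to 1525 with RLE size factors, 341 with the edgeR exact test, 326 with libraries of at least 100000 counts, 98 with the index suffix, 69 with DESeq2, 67 with limma-voom and 10 with filterByExpr, to 117 (TMM) or 123 (library size) with the 4 libraries of at least 1000000 counts, and to 76 to 695 when 1 library was left out. The log2 fold changes of CD247, LAT and SH2D2A kept their sign in every alternative on the counts, and in FPKM LAT turned to 1.35. Limma-voom turned CD3E to 0.59, CD3G to -0.57 and LCK to -0.37, and the 4 deepest libraries turned CD3D to 0.14 (0.18 by library size), ZAP70 to 0.70 (0.76) and FYN to 0.13 (0.17). With 1 library left out the values ran from -1.18 to 0.083 for CD3D, -0.70 to 0.015 for CD3E, -0.55 to 1.96 for CD3G, -0.57 to 0.74 for LCK, -0.94 to 0.37 for ZAP70, -1.41 to 0.059 for FYN, -2.49 to -0.81 for CD247, -0.90 to -0.15 for LAT and 2.83 to 6.74 for SH2D2A. In the exact permutation test SH2D2A was the 1 gene of the 9 with an unadjusted p under 0.05 at a pseudocount of 10 (p = 0.0476) and with libraries of at least 100000 counts (p = 0.0286), and 0 had one by library size. The causes were not tested. The replicate numbers mark different monkeys, and same-numbered libraries did not deviate together (correlations from -0.43 to 0.38, with 0 of 5 Cohort B libraries nearest to their own number). With the replicate block 0 genes passed in the whole table, and CD3E went to 0.98 and CD3G to -0.55. The SH2D2A to LCK log2 ratio of counts, with 0.5 added to each, differed by 4.26 to 7.92 when 1 library was left out. It differed by 4.63 in FPKM, where both genes were listed at 0 in 14HP33 and 14HP24 and the added 0.1 alone set the ratio. Reads of macaque cells on a human reference and total counts as low as 6076 limit what a count of 0 can show.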
